A study of Mus musculus with 2 samples.

Results

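The genes described here were the 5 NF-kB subunit genes Nfkb1, Nfkb2, Rel, Rela and Relb and 4 genes whose products restrain the pathway, Nfkbib, Nfkbie, Tnfaip3 and Tnip1. They were taken by gene symbol, 9 of the 32285 genes counted in each library. The study compared colon immune cells of mice with a deletion of Runx3 driven by Lyz2-Cre with those of littermates that carried the floxed Runx3 alleles alone, so the floxed alleles were shared by both groups. Lyz2-Cre acts in macrophages, monocytes and neutrophils and not in macrophages alone. Lamina propria cells labelled CD11b+ were taken over a Percoll gradient, dead cells were removed by 7-AAD, and 1 droplet library with 3′ chemistry was made per group, each from a pool of male mice aged 8 weeks with no treatment stated. The library titles, Runx3_fl and Runx3, do not name the Cre, and each library is called here by its title.

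NF-kB proteins bind DNA as dimers and are held inactive in the cytoplasm by IkB proteins until kinases of the IKK complex mark those inhibitors for destruction. In the canonical arm Rela and Rel pair with the product of Nfkb1 and are released within minutes, whereas in the non-canonical arm the product of Nfkb2 is processed slowly and pairs with Relb. The pathway induces its own brakes, among them IkB proteins and the ubiquitin-editing enzyme encoded by Tnfaip3, and in intestinal macrophages and dendritic cells it drives cytokine, chemokine and maturation genes.

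The members lie on 6 chromosomes of GRCm38 (mm10), the build named in the submitters' processing notes, and GENCODE M21 annotates each of them as protein coding. The subunit genes are Nfkb1 at chr3:135584655-135691547 on the minus strand, Nfkb2 at chr19:46304320-46312385 on the plus strand, Rel at chr11:23736847-23770970 on the minus strand, Rela at chr19:5637483-5648130 on the plus strand and Relb at chr7:19606217-19629438 on the minus strand. The inhibitor genes are Nfkbib at chr7:28758251-28767512 on the minus strand, Nfkbie at chr17:45555703-45563169 on the plus strand, Tnfaip3 at chr10:19000910-19015657 on the minus strand and Tnip1 at chr11:54910785-54962917 on the minus strand. Nfkb1 overlaps another gene model on its own strand, Gm43430, so its counts are uncertain to the extent that reads were shared between them.

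NF-kB dimers bind kB sites, and sites near their own promoters are the known route by which Nfkb2, Rel, Tnfaip3 and other members respond to the pathway. RefSeq promoter sequences (GRCm38.p6, 250 bases before to 50 after the gene start) were matched by symbol for 7 members in 10 windows, and the promoters of Nfkb1 and Relb were not analysed here. The loose kB motif, GGG then any 5 bases then CC, searched on both strands with overlapping matches allowed, was found in 9 of the 10 windows and in 6 of the 7 genes, all except Nfkbib, but also in 50.8% of 32851 mouse promoters of the same length. The narrower form, GGG then any 2 bases then TTTCC, is contained in the loose form and was chosen after the sequences had been seen. It was found in 5 of the 10 windows, those of Nfkb2, Rel and Tnfaip3, and in 1.63% of the promoters. Overlapping windows of Nfkb2 held the same narrow site, so the 5 windows are not 5 separate sites. Counted by gene, the narrow motif was found in 3 of the 7 members, against 1.89% of 27025 mouse genes. The sites below are shown because they are those with the narrow motif or with a loose match among the members whose levels the results turn on, picked after the sequences had been seen. Capitals mark the motif, each line reads 5′ to 3′ on the gene's strand, and positions are counted from the gene start of the window.
Nfkb2 narrow motif from -11 to -2, chr19:46304716-46304745, plus strand: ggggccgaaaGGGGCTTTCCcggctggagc
Nfkb2 narrow motif from 10 to 19 at a downstream start, chr19:46305695-46305724, plus strand: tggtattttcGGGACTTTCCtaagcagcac
Nfkb2 loose motif from -39 to -30, chr19:46304688-46304717, plus strand: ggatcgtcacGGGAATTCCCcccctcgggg
Rel narrow motif on the opposite strand from -91 to -82, chr11:23771041-23771070, minus strand: gtaagcagcgGGAAATCCCCccccctcccc
Tnfaip3 narrow motif on the opposite strand from -12 to -3, chr10:19015403-19015432, minus strand: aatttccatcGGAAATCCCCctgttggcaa
Tnip1 loose motif from -57 to -48, chr11:54962978-54963007, minus strand: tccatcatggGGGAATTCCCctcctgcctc
Nfkbie loose motif from -106 to -97, chr17:45555584-45555613, plus strand: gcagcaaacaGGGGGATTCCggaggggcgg
Rel and Tnfaip3 share the same 10-base match, and Nfkb2 and Tnip1 share the palindrome printed for them. The Tnip1 window did not open on an annotated transcript, so its position relative to the start used in these cells is uncertain. A match describes letters in a window and does not show that a factor was bound.

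As deposited, 12968 cells with 146204416 UMIs made up the library labelled Runx3_fl, and 8953 cells with 75478164 UMIs the library labelled Runx3. After the study's cell filter, 11885 and 8167 cells were kept, with medians of 9573 and 5731 UMIs, and 37 barcodes occurred in both libraries. Cells were sorted by computer into 7 gates, each defined by at least 1 UMI of its marker, and cells in more than 1 gate (10.0% and 19.7%) or in none (30.8% and 32.3%) were set aside. The macrophage gate (Csf1r and C1qa) held 252 and 276 cells, the cDC gate (Flt3) 771 and 416, the migratory DC gate (Fscn1 and Ccr7) 172 and 60, the NK gate (Ncr1) 1293 and 101 and the T gate (Cd3e) 2832 and 384, for Runx3_fl and Runx3. The Csf3r gate held 1370 and 1446 cells and the Cd79a gate 347 and 1238. Here and below, a first value belongs to the library labelled Runx3_fl and a second to the library labelled Runx3.

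The gates were compared with 43 further markers. All 6 check markers of the macrophage, migratory DC, Csf3r, NK, T and Cd79a gates were highest in their own gate in both libraries, as were 5 of 7 for the cDC gate. The Csf3r gate was nevertheless not a pure neutrophil gate: the neutrophil marker S100a8 stood at 1699 and 20201 CPM (UMIs per 1000000 UMIs), the 6 macrophage markers summed to 695 and 1420 CPM, and Cd74, of MHC class II presentation, stood at 6084 and 4101 CPM. The Cd79a gate changed in makeup between the libraries, with the B cell marker Pax5 at 64.5 and 348 CPM, and the plasma cell genes Jchain at 13969 and 7445 CPM and Xbp1 at 1035 and 261 CPM. Outside the Csf3r gate, S100a8 lay between 0.481 and 4.44 CPM over the other gates of Runx3_fl, and between 65.5 and 167 CPM over those of Runx3. Itgam, which encodes the CD11b of the sort label, was 133 and 230.4 CPM in the macrophage gate but 43.4 and 27.5 CPM in the T gate and 44.9 and 21.7 CPM in the Cd79a gate. Runx3 itself was not lower in the macrophage gate of the library labelled Runx3, at 157 CPM (95% interval 143 to 171) and 245 CPM (225 to 266), and it was 840 and 627 CPM in the NK gate. A 3′ count can lie outside the deleted part of a gene, so this does not check the label.

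There was 1 library per group, so no difference between the groups could be tested and no p-value is given. Levels are UMIs summed over the cells of a gate per 1000000 UMIs of that gate, with exact 95% Poisson intervals that cover counting error only. Ratios between the libraries are on the log2(CPM + 1) scale, Runx3 over Runx3_fl, with 95% counting intervals. A gene was counted as past 2-fold at an absolute log2 ratio of at least 1, among genes with a mean of at least 10 CPM in the gate, a floor that all 9 members passed in all 7 gates. Fewer cells of a type within a gate and less RNA per cell cannot be told apart in such sums.

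**Figure D1:**
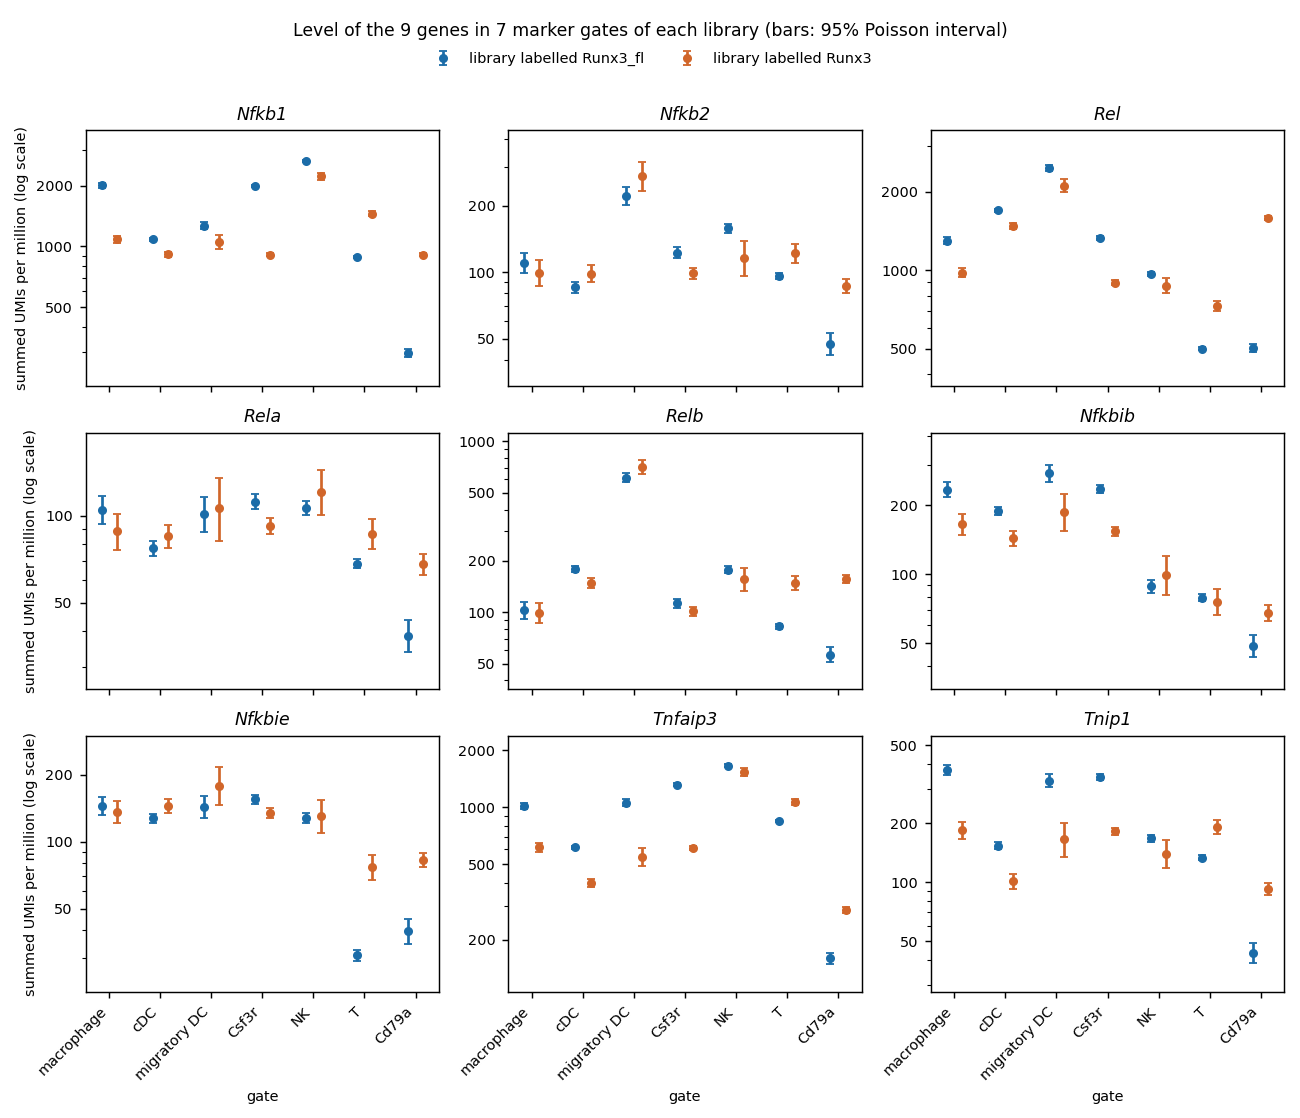
Level of each of the 9 genes in the 7 gates, in CPM on a log axis whose range differs between panels, for the library labelled Runx3_fl (blue) and the library labelled Runx3 (orange). Points are the sums and bars the exact 95% Poisson intervals. Relb and Nfkb2 peak in the migratory DC gate, at 615 and 709 CPM and at 221 and 272 CPM, and Nfkb1 and Tnfaip3 peak in the NK gate.

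Among the canonical subunits, Nfkb1, which encodes the precursor of the DNA-binding partner of Rela and Rel, was highest in the NK gate of both libraries, at 2648 and 2225 CPM. In the library labelled Runx3_fl it was next at 2002 CPM in the macrophage gate and 1987 CPM in the Csf3r gate, whose intervals overlapped, then 1265 CPM in the migratory DC gate, 1085 CPM in the cDC gate, 889 CPM in the T gate and 298 CPM in the Cd79a gate. In the library labelled Runx3 the order below NK was different, with T at 1453 CPM, macrophage at 1087 CPM and migratory DC at 1052 CPM, and the cDC, Cd79a and Csf3r gates between 912 and 914 CPM. Macrophage and migratory DC overlapped there, as did the 3 lowest gates. The span from the highest to the lowest gate was 8.88-fold and 2.44-fold.

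Rel encodes c-Rel, a subunit with a strong activation domain that is known for its role in lymphocytes and in Il12b expression. It was highest in the migratory DC gate, at 2459 and 2108 CPM. The cDC gate followed in the library labelled Runx3_fl at 1701 CPM, while in the library labelled Runx3 the Cd79a gate came second at 1588 CPM, before the cDC gate at 1477 CPM. The macrophage gate stood at 1299 and 979.9 CPM, the Csf3r gate at 1328 and 898 CPM and the NK gate at 970.2 and 874 CPM. The Csf3r gate overlapped with the macrophage gate in the library labelled Runx3_fl and with the NK gate in the library labelled Runx3. The T gate was lowest in both, at 502 and 731 CPM, and overlapped with the Cd79a gate (506 CPM) only in the library labelled Runx3_fl.

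Rela, which encodes the main activating subunit of the canonical arm, was counted at low and even levels. It lay between 38.5 and 112 CPM over the gates of the library labelled Runx3_fl and between 68.0 and 121 CPM over those of the library labelled Runx3, a span of 2.91-fold and 1.77-fold. The highest gates were not separable: the intervals of the Csf3r, NK, macrophage and migratory DC gates overlapped from neighbour to neighbour in both libraries. The Cd79a gate was lowest in both, at 38.5 and 68.0 CPM.

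The non-canonical subunits had the clearest pattern over the gates. Relb, the partner of processed Nfkb2, was highest in the migratory DC gate at 615 CPM (582 to 650) and 709 CPM (644 to 779). These levels were 3.44-fold and 4.52-fold above the second gate, which was cDC at 179 CPM in the library labelled Runx3_fl and NK at 157 CPM in the library labelled Runx3. The cDC and NK gates overlapped in the former, and the NK, Cd79a, T and cDC gates overlapped from neighbour to neighbour in the latter. The macrophage gate held 103 and 99.2 CPM and the Csf3r gate 113 and 102 CPM, pairs of values that overlapped within each library. The lowest gate was Cd79a at 56.8 CPM in the library labelled Runx3_fl and macrophage in the library labelled Runx3.

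Nfkb2, whose product is itself an inhibitor until it is processed, was also highest in the migratory DC gate, at 221 CPM (201 to 242) and 272 CPM (232 to 317). The second gate was NK at 158 CPM in the library labelled Runx3_fl, where the Csf3r (123 CPM), macrophage (109.9 CPM) and T (96.3 CPM) gates overlapped from neighbour to neighbour, above cDC at 85.4 CPM and Cd79a at 47.2 CPM. In the library labelled Runx3 the T, NK, macrophage, Csf3r, cDC and Cd79a gates, from 122 down to 86.3 CPM, each overlapped with the next, so no order among them could be read.

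Of the IkB genes, Nfkbib encodes IkB-beta and Nfkbie encodes IkB-epsilon, cytoplasmic inhibitors of Rela and Rel dimers. Nfkbib was a gene of the myeloid gates: it was 275 and 187 CPM in the migratory DC gate, 234 and 165 CPM in the macrophage gate, 235 and 154 CPM in the Csf3r gate and 189 and 143 CPM in the cDC gate. The NK, T and Cd79a gates held 88.7, 78.9 and 48.8 CPM in the library labelled Runx3_fl and 99.6, 76.0 and 68.0 CPM in the library labelled Runx3. The 4 myeloid gates stood above the 3 lymphoid gates in both libraries without overlap.

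Nfkbie was within 127 to 155 CPM in the macrophage, cDC, migratory DC, Csf3r and NK gates of the library labelled Runx3_fl, each overlapping with its neighbour. The same gates of the library labelled Runx3 held 130.2 to 179 CPM and again overlapped from neighbour to neighbour. The T gate was lowest in both, at 30.8 CPM (29.1 to 32.6) and 76.6 CPM (67.2 to 87.0), with the Cd79a gate next at 39.5 and 82.5 CPM, overlapping with it only in the library labelled Runx3.

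Tnfaip3 encodes A20, which removes activating ubiquitin chains from signalling intermediates and is induced by NF-kB. It was highest in the NK gate at 1658 and 1532 CPM. Next in the library labelled Runx3_fl was the Csf3r gate at 1315 CPM, then migratory DC at 1056 CPM and macrophage at 1015 CPM, which overlapped, and T at 850.5 CPM. In the library labelled Runx3 the T gate was second at 1067 CPM, and the macrophage, Csf3r and migratory DC gates lay together at 614, 608 and 549 CPM. The cDC gate held 615 and 399 CPM, and the Cd79a gate was lowest in both at 159 and 287 CPM.

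Tnip1 encodes ABIN1, a ubiquitin-binding partner of A20. The library labelled Runx3_fl had it highest in the macrophage gate at 375 CPM, followed by the Csf3r gate at 345 CPM and the migratory DC gate at 330.2 CPM, with overlap between neighbours. These 3 gates stood well above the NK (167 CPM), cDC (154 CPM), T (133 CPM) and Cd79a (43.6 CPM) gates. The library labelled Runx3 had no such step: T, macrophage, Csf3r, migratory DC and NK ran from 192 to 139.8 CPM with overlap from neighbour to neighbour, above cDC at 101 CPM and Cd79a at 92.2 CPM, which overlapped.

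Counted over the 9 members, 4 were highest in the migratory DC gate of both libraries (Nfkb2, Rel, Relb and Nfkbib), where 9.67% of 8099 genes were highest. The NK gate was highest in both for 2 members, Nfkb1 and Tnfaip3, against 7.9% of genes. No member was highest in both libraries in the macrophage, cDC, Csf3r, T or Cd79a gate, where 4.38%, 4.9%, 6.37%, 8.47% and 5.57% of genes were. Rela, Nfkbie and Tnip1 had different highest gates in the 2 libraries. For Nfkbib the lead of the migratory DC gate was 1.17-fold and 1.13-fold, and it overlapped with the macrophage gate in the library labelled Runx3.

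Migratory DCs are cDCs that have matured and switched on Ccr7, so both gates were compared within each library. All 9 members were higher in the migratory DC gate in both libraries, as were 29.5% of the 7620 genes tested (49.3% were lower in both), and the members' median log2 difference was 0.54 and 0.46 beside a median over all genes of -0.22 and -0.18. Relb led with log2 differences of 1.78 (1.68 to 1.88) and 2.24 (2.08 to 2.42), and Nfkb2 followed with 1.36 (1.21 to 1.53) and 1.46 (1.21 to 1.72). These 2 non-canonical subunits were the only members past 2-fold in both libraries, as were 8.19% of genes higher and 10.9% lower. Tnip1 was 1.10 and 0.71 higher, Tnfaip3 0.78 and 0.46, Rel 0.53 and 0.51 and Nfkbib 0.54 and 0.38. Nfkb1 differed by 0.22 and 0.20, and the intervals of Rela in the library labelled Runx3 and of Nfkbie in the library labelled Runx3_fl included 0. The migratory DC gate of the library labelled Runx3 held 60 cells, and the share of its marker-positive cells left after setting aside overlapping ones was 60.0%, beside 77.1% in the library labelled Runx3_fl.

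The macrophage and cDC gates differed in which members they held. In both libraries 6 members were higher in the macrophage gate, against 31.2% of the 7756 genes tested, and 2 members, Rel and Relb, were lower, against 45.6%. Among the 6, Nfkb2 (0.013, -0.22 to 0.24) and Rela (0.056, -0.19 to 0.30) had intervals that included 0 in the library labelled Runx3. The log2 difference was 1.28 and 0.86 for Tnip1, 0.72 and 0.62 for Tnfaip3 and 0.88 and 0.25 for Nfkb1. Rel was lower by log2 values of -0.39 and -0.59, and Relb by -0.79 and -0.58. No member passed 2-fold in both libraries, beside 5.76% of genes higher and 4.46% lower.

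The Csf3r gate stood close to the macrophage gate. In both libraries Rela and Relb were higher in the Csf3r gate and Nfkb1 and Tnip1 lower, 2 members each way, against 24.1% and 46.1% of 7621 genes, and no member passed 2-fold in both, beside 2.35% higher and 0.892% lower. The intervals of Rela and Relb included 0 in both libraries, that of Nfkb1 in the library labelled Runx3_fl and that of Tnip1 in the library labelled Runx3. In the library labelled Runx3_fl the log2 differences ran from -0.12 (Tnip1) to 0.37 (Tnfaip3), and in the library labelled Runx3 from -0.25 (Nfkb1) to 0.064 (Rela).

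**Figure D2:**
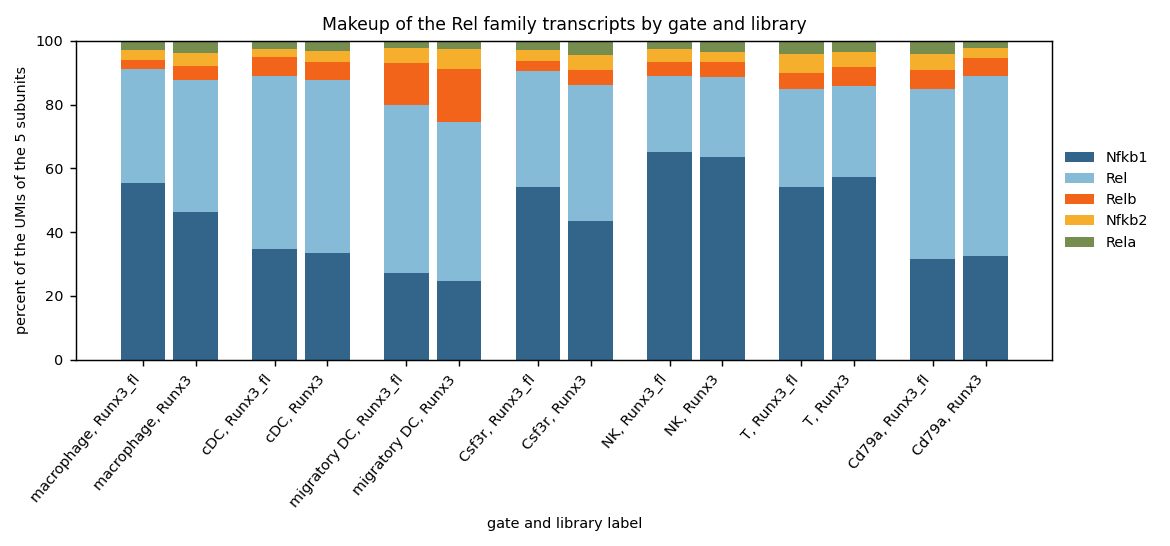
Share of each subunit gene in the UMIs of the 5 subunit genes, in percent, by gate and library. Relb takes 13.2% and 16.7% in the migratory DC gate and at most 5.996% in the other gates, and Nfkb1 takes 65.2% and 63.7% in the NK gate.

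The makeup of the subunit transcripts separated the NK gate, rich in Nfkb1, from the cDC and migratory DC gates, rich in Rel, in both libraries. A 3′ count takes 1 UMI per captured molecule and does not scale with transcript length, but whether intronic reads were counted is not given in the sources used here, so shares are compared between gates and not between genes. Nfkb1 made up 65.2% and 63.7% of subunit UMIs in the NK gate, 54.3% and 57.2% in the T gate, and 27.1% and 24.8% in the migratory DC gate. Rel made up 54.4% and 54.2% in the cDC gate, 53.4% and 56.5% in the Cd79a gate, and 23.9% and 25.0% in the NK gate. In the macrophage gate the share of Nfkb1 was 55.3% (54.4 to 56.2) and 46.2% (44.8 to 47.5), while that of Rel was 35.9% and 41.6%. The Csf3r gate moved alike, with Nfkb1 at 54.3% and 43.4% and Rel at 36.3% and 42.7%.

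The 4 inhibitors were also expressed as a share of the UMIs of all 9 members. It was 32.8% and 31.8% in the macrophage gate, with overlapping exact 95% intervals, and higher in the library labelled Runx3 in the NK gate, 33.5% (33.1 to 33.8) and 35.3% (34.0 to 36.5). It was lower in the library labelled Runx3 in the Csf3r gate (35.9% and 33.9%), the migratory DC gate (27.9% and 20.3%), the cDC gate (25.7% and 22.4%), the T gate (40.0% and 35.7%) and the Cd79a gate (23.5% and 15.9%), in each case without overlap. Within fractions of these gates the shares overlapped in Cd79a cells with Ms4a1, a B cell marker (12.6% and 12.9%), in Csf3r cells with Cxcr2, a neutrophil receptor (41.4% and 41.1%), and in T cells with Cd4 (36.6% and 35.1%). The share was lower in the library labelled Runx3 without overlap in Cd79a cells without Ms4a1 (31.6% and 21.7%) and in the remaining fractions of the Csf3r, cDC and T gates. It was higher without overlap in macrophages with Nos2 (35.1% and 44.9%), but these were 61 and 8 cells and the intervals cover counting error only. The share overlapped in macrophages without Nos2 (32.0% and 31.1%). The shares within fractions were added after seeing the data. Nfkbia, the IkB-alpha gene, is not a member and does not enter these shares, so they do not describe all inhibitors of the pathway. Its level was 1501 and 1708 CPM in the macrophage gate, 2398 and 1747 CPM in the Csf3r gate and 387 and 946 CPM in the T gate.

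To set levels beside the share of cells that held a transcript, each cell was thinned to 2000 UMIs, and cells below that depth were left out. In the macrophage gate 246 and 226 cells entered, after 6 and 50 were left out. Nfkb1 was then seen in 93.1% (89.2 to 95.9) and 71.2% (64.9 to 77.1) of cells, Tnfaip3 in 77.6% and 60.6%, Rel in 87.4% and 73.5% and Tnip1 in 46.7% (40.4 to 53.2) and 30.5% (24.6 to 37.0). Without thinning the shares were 97.2% and 85.5% for Nfkb1, 96.4% and 78.3% for Tnfaip3, 97.6% and 88.8% for Rel and 87.3% and 52.5% for Tnip1, at median depths of 12786 and 6381 UMIs. The thinned shares of Nfkb2, Rela, Relb and Nfkbie overlapped between the libraries, for example 15.9% and 15.9% for Nfkb2.

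In the migratory DC gate Relb was seen in 67.5% (59.8 to 74.5) and 63.2% (49.3 to 75.5) of thinned cells, against 25.9% and 24.9% in the cDC gate. Nfkb2 was seen in 33.1% (26.0 to 40.8) and 54.4% (40.7 to 67.6) of thinned migratory DC cells and in 17.2% and 20.2% of thinned cDC cells. The 2 migratory DC intervals of Nfkb2 overlapped narrowly, and the second share rests on 57 cells. The corresponding shares without thinning were 93.6% and 91.7% for Relb in the migratory DC gate and 79.6% and 55.1% in the cDC gate, at median depths of 12454 and 9861 UMIs and of 15408 and 11692 UMIs. No gate is known to lack these genes, so the share that free RNA alone gives was not measured, and the lowest thinned share of any member was that of Nfkbie in the T gate of the library labelled Runx3_fl, 6.43%.

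**Figure D3:**
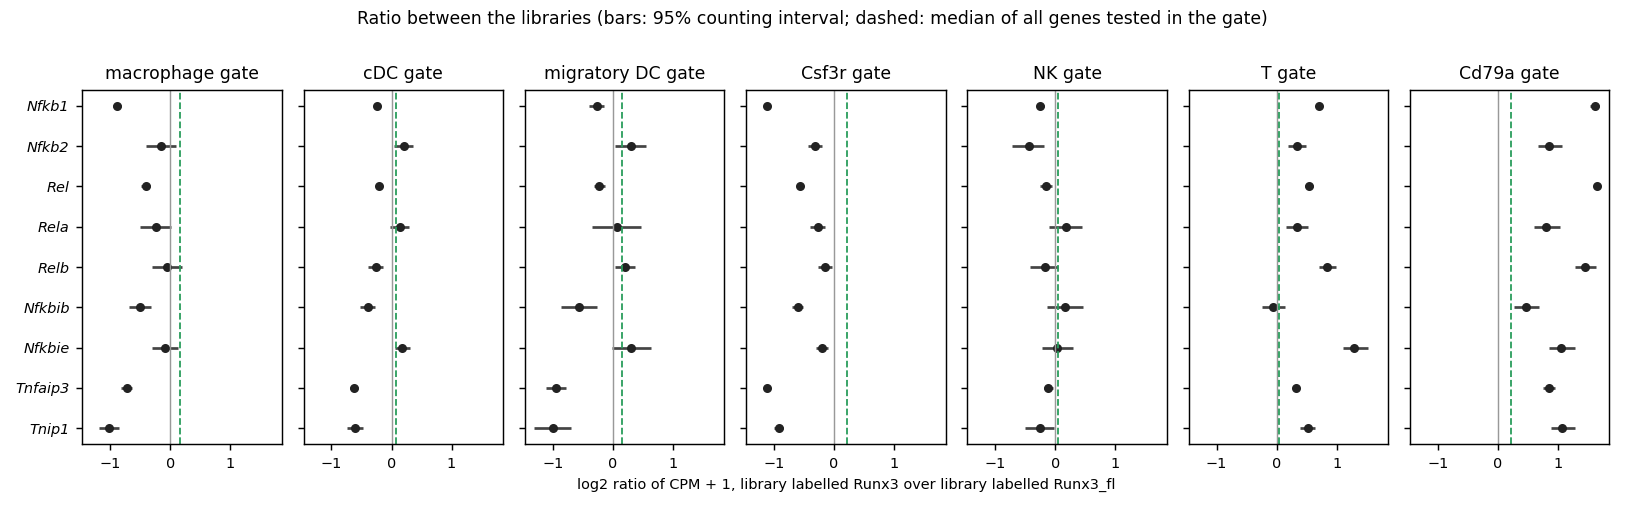
Log2 ratio of CPM + 1 between the libraries, Runx3 over Runx3_fl, for the 9 genes in each gate. Points are ratios, bars 95% counting intervals, the grey line 0 and the dashed green line the median of all genes tested in the gate. All 9 ratios lie below 0 in the macrophage and Csf3r gates, and all 9 lie above 0 in the Cd79a gate.

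The study's question concerns macrophages, and in the macrophage gate all 9 members were lower in the library labelled Runx3, as were 37.3% of the 7579 genes tested (62.7% were higher). The members' median log2 ratio was -0.41, and that of all genes tested was 0.16. Tnip1 had the largest difference, with 375 CPM (354 to 397) in the former library, 184 CPM (167 to 203) in the latter and a ratio of -1.02 (-1.19 to -0.86). It was the only member past 2-fold, as were 3.06% of genes in that direction, and its ratio was -0.64 when cells were thinned to 2000 UMIs and -0.84 when gates were allowed to overlap, both short of 2-fold. Nfkb1 followed at -0.88 (-0.95 to -0.81) and Tnfaip3 at -0.73 (-0.82 to -0.63), and the ratios of Nfkbib and Rel were -0.50 and -0.41. The intervals of Nfkb2 (-0.15), Rela (-0.24), Relb (-0.052) and Nfkbie (-0.084) included 0, and the last 2 turned above 0 with overlapping gates (0.069 and 0.11). Relb also turned to 0.093 with thinning, and Nfkb2 to 0.11 with a mean over cells. The members whose intervals included 0, which are subunits of both arms and an inhibitor, had the fewest UMIs in this gate, 324 to 455 and 196 to 302. No difference could be read for them at this depth, whereas the intervals of Nfkb1, Rel, Nfkbib, Tnfaip3 and Tnip1 lay below 0.

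Other values moved with this comparison. In the macrophage gate the 6 macrophage markers summed to 2366 and 5516 CPM, the 6 neutrophil markers to 15.2 and 406 CPM, and the proliferation gene Mki67 stood at 210 and 52.3 CPM. Of the cells positive for both macrophage markers, 51.2% and 62.0% also held Csf3r and were set aside. When those cells were kept, 516 and 721 cells gave log2 ratios of -0.99 for Nfkb1, -0.76 for Tnfaip3 and -0.85 for Tnip1. In macrophage-gated cells without a Nos2 UMI, 191 and 268 cells, the ratios were -0.90 for Nfkb1 and -0.74 for Tnfaip3, and Tnip1 was 362 and 179.8 CPM. The 61 and 8 cells with a Nos2 UMI gave -0.94 for Nfkb1 and -0.58 for Tnip1. For Tnfaip3 they gave -0.13 (-0.43 to 0.16), an interval that included 0. The part of cell makeup in these ratios was not tested.

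The Csf3r gate gave the same direction for all 9 members, beside 33.1% of the 7549 genes tested (66.9% were higher), with a median of -0.56 against 0.21 over all genes. Nfkb1 stood at 1987 CPM (1959 to 2014) in Runx3_fl against 912 CPM (894 to 929) in Runx3, so that its ratio was -1.12. Tnfaip3 stood at 1315 CPM (1293 to 1338) against 608 CPM (593 to 622), with a ratio of -1.11. These 2 members were past 2-fold, as were 2.99% of genes in that direction, and none was higher, beside 9.19%. With overlapping gates both fell short of 2-fold, at -0.93 for Nfkb1 and -0.95 for Tnfaip3. Tnip1 had a ratio of -0.92, Nfkbib -0.61 and Rel -0.56, and the remaining 4 lay between -0.31 (Nfkb2) and -0.15 (Relb). Of these, Rela and Relb turned to 0.0057 and 0.023 with thinning and Nfkbie to 0.0053 with overlapping gates.

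Because S100a8 differed between the libraries in this gate, the gate was split by Cxcr2, a receptor of mature neutrophils. The 407 and 326 cells with a Cxcr2 UMI held S100a8 at 6967 and 65032 CPM, and there the ratios were -1.71 for Nfkb1, -1.66 for Tnfaip3, -1.35 for Rel, -1.20 for Nfkbib, -1.11 for Tnip1 and -1.10 for Nfkb2. The 963 and 1120 cells without one held S100a8 at 581 and 3499 CPM, and there the ratios were -0.95 for Nfkb1, -0.96 for Tnfaip3, -0.81 for Tnip1 and -0.36 for Rel. Relb (0.031), Nfkbie (-0.017) and Nfkb2 (-0.095) had intervals that included 0 in the cells without Cxcr2. Nfkb1 and Tnfaip3 were thus lower in the library labelled Runx3 in both fractions, by more in the fraction with Cxcr2, a difference between fractions that was not tested.

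**Figure D4:**
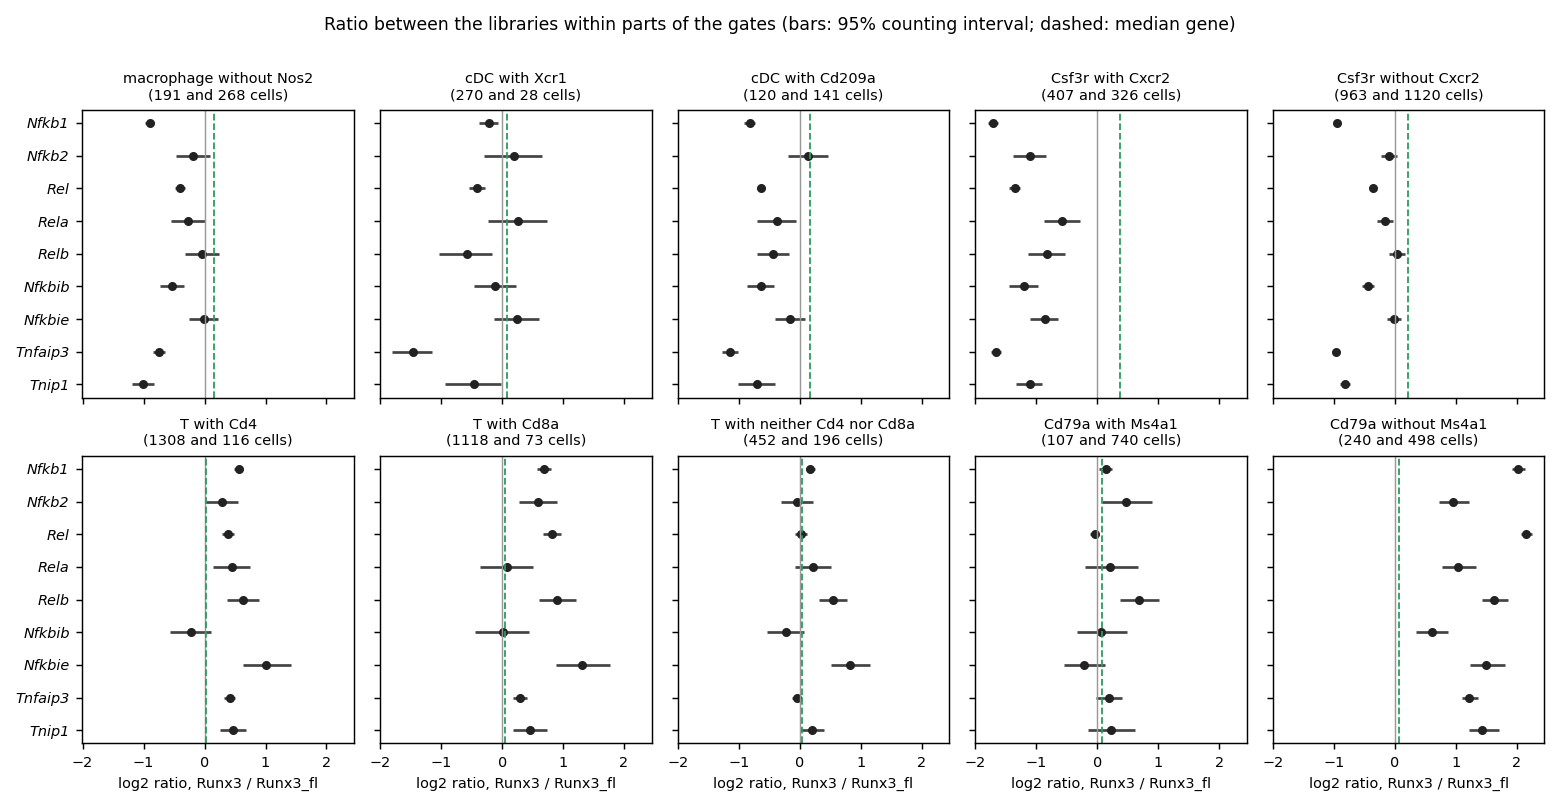
Log2 ratio of CPM + 1, Runx3 over Runx3_fl, of the 9 genes within fractions of the gates, with the cells in each library in brackets. Points are ratios, bars 95% counting intervals and dashed green lines the median of all genes tested. The ratios of Rel (-0.043) and Nfkb1 (0.13) lie near 0 in Cd79a cells with Ms4a1 and at 2.15 and 2.02 in those without.

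In the cDC gate 6 members were lower and 3 higher in the library labelled Runx3, beside 42.7% and 57.3% of the 7698 genes tested, and the median was -0.25 against 0.078. Tnfaip3 was 615 and 399 CPM, with a ratio of -0.62 (-0.69 to -0.55), and Tnip1 was 154 and 101 CPM, with a ratio of -0.60 (-0.75 to -0.47). No member passed 2-fold, beside 1.7% of genes lower and 6.48% higher. The mix of cDC subsets moved with the library, since the gate held Xcr1, a marker of cDC1, at 99.6 and 15.7 CPM and Cd209a, a marker of cDC2, at 55.2 and 198 CPM. In the 120 and 141 cells with Cd209a the ratio was -0.82 for Nfkb1, -0.64 for Rel and -1.15 for Tnfaip3. In the 270 and 28 cells with Xcr1 it was -0.22 for Nfkb1, -0.41 for Rel and -1.46 (-1.80 to -1.16) for Tnfaip3, so Tnfaip3 was lower in both subsets.

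In the migratory DC gate the members had ratios of both signs. Tnfaip3 stood at 1056 CPM (1012 to 1101) in Runx3_fl against 549 CPM (492 to 611) in Runx3, with a ratio of -0.94. Tnip1 stood at 330.2 CPM (306 to 356) against 165 CPM (135 to 201), with a ratio of -0.99. The inhibitor gene Nfkbie had the highest ratio of the 9, 0.31 (-0.017 to 0.63). Nfkb2 had a ratio of 0.30 (0.037 to 0.56), which was 0.93 with thinning, and Relb one of 0.20 (0.045 to 0.36), which turned to -0.056 with thinning. The median over the members was -0.22 beside 0.15 over all genes, 5 members were lower and 4 higher against 39.9% and 60.1% of the 7258 genes tested, and none passed 2-fold, beside 4.13% lower and 12.6% higher.

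In the NK gate the intervals of 5 members lay below 0 and those of 4 included 0. The median was -0.15 beside 0.047 over all genes, and the ratios ran from -0.45 (Nfkb2) to 0.18 (Rela). Nfkb1 stood at 2648 CPM (2617 to 2678) against 2225 CPM (2136 to 2318), with a ratio of -0.25, and Tnfaip3 had a ratio of -0.11. Of the 9 members 6 were lower and 3 higher, beside 44.9% and 55.1% of the 7336 genes tested, and none passed 2-fold, beside 1.12% lower and 4.06% higher. The gate held 101 cells in the library labelled Runx3, and Runx3 itself was lower there, as given above.

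The T gate went the other way. In it 8 members were higher in the library labelled Runx3, beside 52.5% of the 7859 genes tested (47.5% were lower), and the median was 0.52 against 0.039. Nfkbie had the largest ratio, 1.29 (1.11 to 1.51), from 30.8 to 76.6 CPM, and was the only member past 2-fold, as were 11% of genes in that direction and 8.93% in the other. Relb followed at 0.84 (82.8 and 149 CPM), Nfkb1 at 0.71 (889 and 1453 CPM), Rel at 0.54 and Tnip1 at 0.52, and Nfkbib at -0.054 had an interval that included 0.

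The T gates of the 2 libraries held different cells. Mki67 was 265 and 31.6 CPM and the cytotoxic gene Gzma 1771 and 123 CPM. The 6 T check markers summed to 2980 and 1712 CPM. Only the T lineage factor Bcl11b among them was higher in the library labelled Runx3, at 229 and 343 CPM. The ratios of Nfkb1 and Nfkbie were 0.56 and 1.01 in the 1308 and 116 cells with Cd4, and 0.69 and 1.31 in the 1118 and 73 cells with Cd8a. In the 452 and 196 cells with neither, Nfkb1 had a ratio of 0.17, Rel one of 0.015 (-0.086 to 0.11) and Tnfaip3 one of -0.050 (-0.13 to 0.033), while Relb at 0.54 and Nfkbie at 0.82 stayed above 0. The fraction with Cd4 also differed in makeup between the libraries. It held Foxp3, a marker of regulatory T cells, at 2.79 and 81.3 CPM and Cd28 at 1328 and 766 CPM. The part of cell makeup in the ratios of the T gate and its fractions was not tested further.

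In the Cd79a gate all 9 members were higher in the library labelled Runx3, beside 59.2% of the 7703 genes tested (40.8% were lower), with a median of 1.05 against 0.22. Rel stood at 506 CPM (488 to 524) against 1588 CPM (1561 to 1615), with a ratio of 1.65, and Nfkb1 at 298 against 912 CPM, with a ratio of 1.61. A mean over cells gave 0.63 for Rel and 0.72 for Nfkb1. With Relb (1.45), Tnip1 (1.06) and Nfkbie (1.05), 5 members were past 2-fold, as were 18.6% of genes in that direction. Thinning to 2000 UMIs took all 5 below 2-fold, to 0.96 for Relb, 0.82 for Nfkb1, 0.68 for Rel, 0.38 for Tnip1 and 0.082 for Nfkbie. The ratios differed between fractions of the gate, a difference that was not tested. In the 107 and 740 cells with a UMI of the B cell marker Ms4a1, Rel stood at 1952 CPM (1864 to 2044) against 1895 CPM (1857 to 1933), with a ratio of -0.043, and Nfkb1 had a ratio of 0.13. Only Relb (0.68), Nfkb2 (0.47) and Nfkb1 kept an interval above 0 there. In the 240 and 498 cells without Ms4a1, whose Jchain was 15773 and 16949 CPM, Rel was 252 and 1124 CPM, while Pax5 was 11.7 and 188 CPM.

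The other genes of the pathway were described in 5 lists of 61 genes. The lists were chosen with results of these libraries known, so their counts are no separate evidence. In the macrophage gate 56 of the 61 genes were tested, 15 were lower past 2-fold and none higher, against the 3.06% and 9.53% of all genes. Of these 15, 13 were from the list of target genes. Of the 4 IkB genes outside the members none passed 2-fold: Nfkbia had a ratio of 0.19 and Nfkbid one of 0.53, with Bcl3, a nuclear IkB protein that works with the Nfkb1 and Nfkb2 products, at 55.6 and 84.8 CPM (ratio 0.60) and Nfkbiz, a nuclear IkB protein that works with the Nfkb1 product, at 956 and 599 CPM (ratio -0.67). None of the 9 kinases tested passed 2-fold, and they ranged from Tbk1, a kinase of interferon induction, at -0.39 to Map3k8, which links NF-kB to the MAP kinase pathway, at 0.98. Among 15 ubiquitin regulators 1 was lower, Tnip3, a relative of Tnip1, at 248 and 97.4 CPM (ratio -1.34), and the highest was the ubiquitin ligase Birc3 at 0.46. Among 9 adaptors 1 was lower, Malt1, a protease of the CARD-BCL10 complex, at 2775 and 1167 CPM (ratio -1.25), and the highest was the kinase Irak4 of Toll-like receptor signalling at 0.86.

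In the macrophage gate the target genes had the median furthest from 0 among the 5 lists. There 13 of 19 were lower past 2-fold, with a median log2 ratio of -1.44, against 3.06% of all genes. The lowest was Il12b, which encodes the shared subunit of interleukins 12 and 23, at 136 and 17.6 CPM (ratio -2.88), and the highest was the stress gene Gadd45b at 459 and 842 CPM (ratio 0.87). In the Csf3r gate 13 of 19 were lower as well, with a median of -1.48, against 2.99% of genes. The cDC gate had 3 lower (Il6, Il12b and Bcl2a1b, against 1.7%) and the migratory DC gate 4 (Il1b, Il6, Il12b and Ptgs2, against 4.13%), named after their values were seen. The list was chosen with results of these libraries known, so its direction is no separate evidence.

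**Figure D5:**
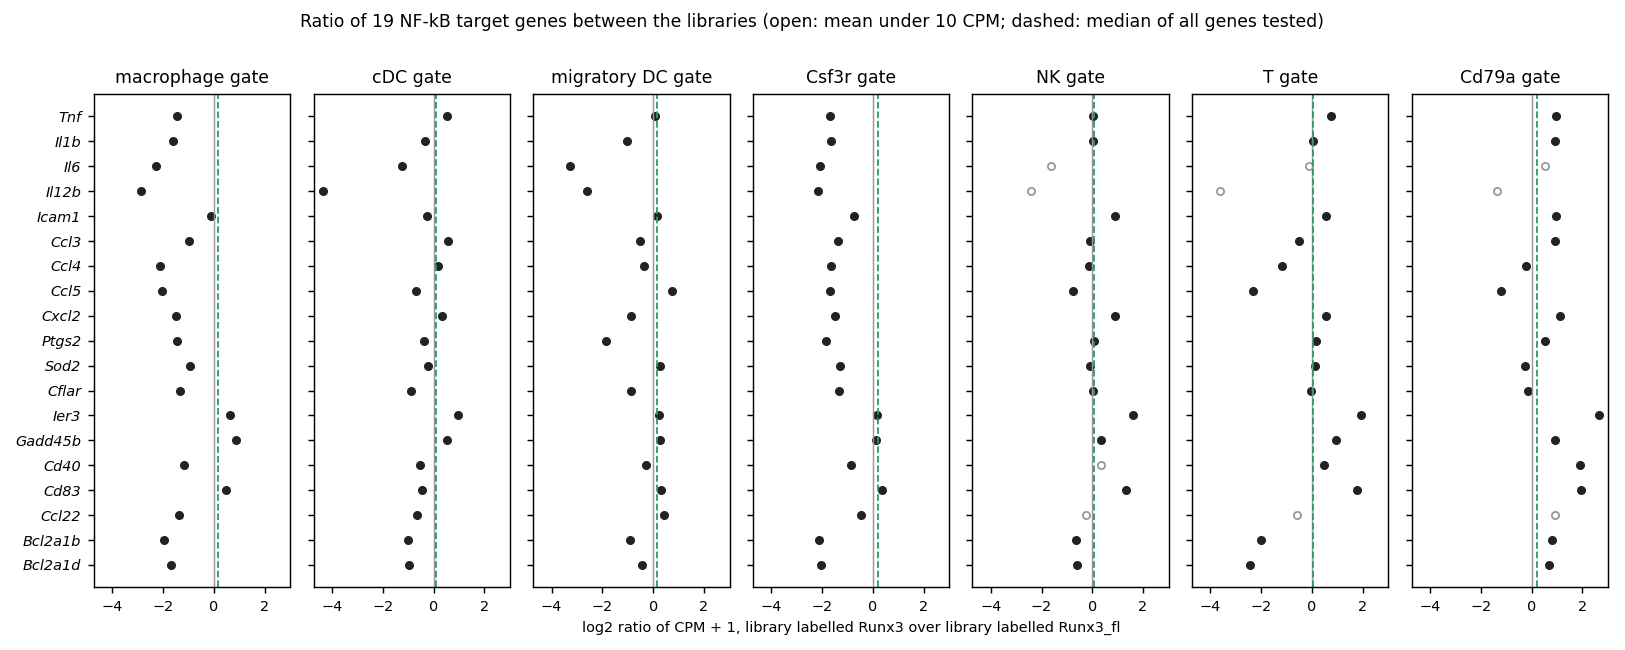
Log2 ratio of CPM + 1, Runx3 over Runx3_fl, of the 19 target genes in each gate. Filled points had a mean of at least 10 CPM and open points did not, the grey line is 0 and the dashed green line the median of all genes tested. Most points lie left of 0 in the macrophage and Csf3r gates, with medians of -1.44 and -1.48, and Ier3 and Cd83 lie right of 0 by at least 1 in the NK, T and Cd79a gates.

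In the T gate 6 of 55 tested pathway genes were higher past 2-fold and 5 lower, shares of the list near those of all genes, 11% and 8.93%. The lower ones were the chemokines Ccl4 and Ccl5, the survival genes Bcl2a1b and Bcl2a1d and N4bp1, and the higher ones included 2 of the 4 other IkB genes: Nfkbia, which encodes the rapidly resynthesised IkB-alpha, at 387 and 946 CPM (ratio 1.29), and Nfkbid, a nuclear IkB gene, at 64.5 and 160.3 CPM (ratio 1.30). The Cd79a gate had 18 of 53 tested genes higher and 1 lower, against 18.6% and 15.1% of all genes. In the NK gate 2 of 53 were higher and none lower, near the 4.06% and 1.12% of all genes. In the migratory DC gate 8 of 57 were lower past 2-fold and 1 higher, against 4.13% and 12.6% of all genes. The 1 higher gene was Map3k14, which encodes the kinase that starts the processing of the Nfkb2 product, at 155 and 375 CPM (ratio 1.27). These genes were also named after their values were seen.

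Finally, the genes most like each member were found by Pearson's r of log2(CPM + 1) over 14 points, the 7 gates in 2 libraries, among 8081 candidates. The points share libraries and depth, so the coefficients are descriptions. Nfkbib was matched most closely, by Spred1 (0.98), Rnd3 (0.97) and Klf6 (0.97). Relb was matched by Rab21 (0.96), Pcgf5 (0.94) and Uap1 (0.94), Tnip1 by Abi1 (0.95), Stx6 (0.93) and Rap1b (0.93) and Nfkbie by Tdrd7 (0.94), Rbpms (0.93) and Epb41l2 (0.93). Nfkb1 and Tnfaip3 had the same closest gene, Mpp7 (0.94 and 0.92), followed by Erbin (0.91) and Btg1 (0.90) for Nfkb1 and by Gtf2b and Arhgef3 (0.92 each) for Tnfaip3. Rel was matched by Mbtd1 (0.92), Nuak2 (0.91) and Ikbkb (0.90), Rela by Icam1 (0.93), Btg1 (0.93) and Kdm6b (0.91), and Nfkb2 by Pfkfb3 (0.91), Nr4a3 (0.90) and Gm19684 (0.89). Ranking by Spearman's rho instead kept all 3 of these genes for Tnfaip3, none for Relb and Nfkbie and 1 of the 3 for each other member. Among the members the highest Pearson coefficients were 0.91 between Nfkb1 and Tnfaip3, 0.89 between Nfkb1 and Rela and 0.87 between Nfkb2 and Relb, and the lowest was 0.091 between Rel and Tnfaip3.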

How the data were processed

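The authors deposited 1 filtered UMI count matrix per library, made with Cell Ranger 7.1.0 per the file headers. The submitters' processing notes name mm10 and Seurat 4. The counts are whole, not normalized. Cells with 200 to 6000 genes and at most 15% mitochondrial UMIs were kept, the filter of the study's methods. No doublet caller was run, and cells in more than 1 gate were left out. Counts were summed per gate and library with pandas 2.3.3, scipy 1.17.1 and numpy 2.4.6 under Python 3.11.15 and scaled to CPM, with 1 CPM added on the log scale. Intervals are 95%: exact Poisson for levels, exact conditional for ratios and exact Clopper-Pearson for shares. Of 32285 gene IDs, 32235 were found in GENCODE M21. Motifs were searched in RefSeq promoters. The scripts were tested on simulated data.

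The members and lists were chosen with earlier results of these data known. Named were the 9 members, the 3 genes most like each, the highest and lowest gene of each pathway list in the macrophage gate, the markers and Runx3. Alternatives were gates that overlapped or needed 2 UMIs, no cell filter, at least 2000 UMIs, shared barcodes left out, thinning, a mean over cells, the median gene set to 0, other values added and other floors, and Spearman's rho. Fractions by Cxcr2, by Ms4a1 and without Cd4 and Cd8a, the macrophage gate with Csf3r and the narrow motif were added after the data were seen.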

Additional observations from a re-analysis of the deposited data

Results flagged for a closer look

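The ratio between the libraries differed in sign between the macrophage and T gates for 4 members whose counting intervals lay on opposite sides of 0. The T gate's log2 ratio was above that of the macrophage gate by 1.59 for Nfkb1, 1.54 for Tnip1, 1.05 for Tnfaip3 and 0.95 for Rel. With 1 library per group the difference was not tested. The T gates of the libraries also differed in Mki67 (265 and 31.6 CPM) and Gzma (1771 and 123 CPM), whose part in it was not tested.

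Cells outside the comparisons also held the members' transcripts. Summed over the 9 members, cells in no gate held 5817 and 3983 CPM, and cells in more than 1 gate held 3941 and 3391 CPM, for Runx3_fl and Runx3.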

How the results depend on the processing

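No paired analysis was possible because each group had 1 library, and for the same reason no replicate could be left out. The members' median log2 ratio kept its sign in each gate under each alternative run. With overlapping gates it was -0.19 in the macrophage, -0.34 in the Csf3r, 0.37 in the T and 0.82 in the Cd79a gate. Gates at 2 UMIs gave -0.16 for cDC and -0.055 for migratory DC. Thinning to 2000 UMIs gave -0.51 for macrophage, -0.30 for cDC, -0.12 for migratory DC, -0.47 for Csf3r and 0.68 for Cd79a, and the mean over cells gave -0.32 for cDC, -0.13 for migratory DC, -0.46 for Csf3r and 0.63 for Cd79a. With the median gene at 0 it was -0.57 for macrophage, -0.32 for cDC, -0.37 for migratory DC, -0.78 for Csf3r and 0.82 for Cd79a, and with no cell filter -0.64 for Csf3r. The fraction with Cxcr2 gave -1.11 and that with Ms4a1 0.19, where Rel (-0.043) and Nfkbie (-0.21) turned direction. The cause was not tested. Of 63 single ratios, 59 kept their sign with overlapping gates and 56 with thinning. Depth limits the migratory DC and NK gates of the library labelled Runx3 (60 and 101 cells).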
